A study of Homo sapiens with 2 samples.

Results

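The 10 genes described here encode enzymes and helpers that modify or cross-link collagen: the lysyl hydroxylases PLOD1, PLOD2 and PLOD3, the prolyl 4-hydroxylase alpha subunit P4HA3, the prolyl 3-hydroxylase P3H1 and its partner CRTAP, the collagen chaperone SERPINH1, the galactosyltransferase COLGALT1, and the lysyl oxidases LOX and LOXL2. They were picked by name as a functional group, with earlier results of these data known, and all 10 were found among the 58735 genes of the deposited expression table. RNA was sequenced from SF-539 cells, a human glioblastoma (GBM) line, grown in DMEM with 10% FBS. One culture carried the non-targeting lentiviral shRNA construct pGIPZ-CTRL (shControl) and the other an FKBP9 shRNA (shFKBP9), both after puromycin selection. FKBP9 encodes an endoplasmic reticulum (ER) protein of the FK506-binding family. There was 1 library per condition, so no difference between shFKBP9 and shControl below has a replicate check, and the labels do not say which of the study's FKBP9 shRNAs was used and speak of stable clones without giving their number.

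Collagen chains are modified while they enter the ER. Prolyl 4-hydroxylases stabilise the triple helix, the P3H1, CRTAP and cyclophilin B complex hydroxylates selected prolines at another position, and lysyl hydroxylases convert lysines to hydroxylysines, to which COLGALT1 adds galactose. SERPINH1 (HSP47) binds the folded triple helix in the ER. Outside the cell, lysyl oxidases oxidise lysine and hydroxylysine side chains, and the products condense into covalent cross-links. PLOD2 hydroxylates lysines of the telopeptides, the short ends of the collagen molecule, which sets the kind of cross-link that forms, and PLOD1, PLOD2, LOX and LOXL2 are all known as genes induced by hypoxia.

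Fragments on genes numbered 18116873 in shControl and 17158514 in shFKBP9. FKBP9 itself was at 49.8 FPKM (fragments scaled to gene length and to library size) in shControl and 4.68 FPKM in shFKBP9, so 9.39% of its level remained. The labels call the cells epithelial glioma cells, yet the 4 epithelial markers EPCAM, CDH1, KRT8 and KRT18 came to 1.67 and 1.52 FPKM in shControl and shFKBP9, with CDH1 at 0 fragments in shControl. The 5 glial and neural markers GFAP, OLIG2, SOX2, NES and S100B summed to 3.43 and 3.22 FPKM, with S100B at 0 in shControl. The 5 mesenchymal markers VIM, CD44, FN1, THY1 and PDGFRB summed to 650.2 and 679.3 FPKM, although THY1 held 3 fragments in shControl and 1 in shFKBP9. Endothelial markers (PECAM1, CDH5 and VWF) stayed at or under 0.149 FPKM in sum, and leukocyte markers (PTPRC, CD68 and CD3E) at or under 0.353 FPKM, with PTPRC and CD3E at 0 in both libraries. The keratinocyte markers KRT5, KRT14 and KRT6A together held 9 fragments in shControl and 48 in shFKBP9; their part in the results below was not tested.

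Of the 10 genes, 9 were expressed at 23.9 FPKM or more in both libraries, and P4HA3 was close to undetected. LOXL2 had the highest level, 318.0 FPKM (95% Poisson interval 314.6 to 321.5) in shControl and 296.1 FPKM (292.7 to 299.5) in shFKBP9, and ranked 85th and 107th among all genes of the table by FPKM. In shControl SERPINH1 and LOX came next, followed by PLOD1 and PLOD2, CRTAP and COLGALT1, and then PLOD3 and P3H1. In shControl CRTAP stood at 1.003 times the level of COLGALT1 (95% interval 0.969 to 1.04), no difference beyond counting error, and PLOD1 at 1.03 times that of PLOD2 (1.002 to 1.06), at the edge of it. In shFKBP9, LOX stood above SERPINH1, PLOD2 stood above PLOD1, and COLGALT1 stood above CRTAP, and no neighbours in the order had overlapping intervals.

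Differences between the libraries were small. In RNA from a whole culture, a smaller share of cells that express a gene and less of its RNA per cell cannot be told apart. None of the 10 genes passed 2-fold. Among all genes that reached 1 FPKM in shControl or shFKBP9, 2.02% were past 2-fold upward in shFKBP9 and 2.19% downward, or 4.21% in all. A narrower reading uses the 95% interval of the log2 ratio (shFKBP9 over shControl), which covers counting error only. It lay above 0 for 2 genes, PLOD2 and LOX, and below 0 for 6 genes, PLOD1, PLOD3, P3H1, CRTAP, SERPINH1 and LOXL2. For COLGALT1 and P4HA3 it included 0. Over all genes that held 10 fragments or more, counted over both libraries, 13.8% had an interval above 0 and 16.9% one below 0. Deep genes pass this rule more often, and over the genes with at least 1000 fragments, which include 9 of the 10 enzymes, the shares were 23.9% and 29.6%. The number of higher genes, 2 of 10, is therefore near the background. That of lower genes, 6 of 10, is above it, by small differences and in a group picked with earlier results known. This background was not matched to the depth of the enzymes beyond the 1000 fragments, so whether depth accounts for the excess was not tested. SERPINH1 is among the 6, although 44.9% of all genes with at least 1000 fragments had a log2 ratio as low or lower. The 10 genes had a median log2 ratio of -0.07. For the 9 with at least 1000 fragments it was -0.09, against -0.02 for all genes of that depth.

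The lysyl hydroxylases went in different directions. PLOD2 (ENSG00000152952) is encoded on the minus strand of chromosome 3 (hg38, bases 146069440 to 146163653), with 20 exons in the GENCODE release 44 canonical transcript, the source of the exon numbers below. Its level was 73.4 FPKM in shControl, from 10160 fragments, and 95.3 FPKM in shFKBP9, from 12506 fragments. The level was thus 1.30 times as high in shFKBP9 (95% interval 1.27 to 1.33), a log2 ratio of 0.38 (0.34 to 0.41). This was the largest difference among the 9 expressed enzymes, and 2.25% of all genes with at least 1000 fragments had a log2 ratio as high or higher. A value per gene does not separate the splice forms of PLOD2, of which the one with an additional exon is the form tied to telopeptide hydroxylation.

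PLOD1 (ENSG00000083444), whose product mainly hydroxylates lysines within the triple helix, lies on chromosome 1 from 11934205 to 11975538 and has 19 exons. It was at 75.8 FPKM (7299 fragments) in shControl and 71.0 FPKM (6486 fragments) in shFKBP9, a log2 ratio of -0.09 (-0.14 to -0.05). PLOD3 (ENSG00000106397), which encodes an enzyme with both hydroxylase and glycosyltransferase activity, lies on chromosome 7 from 101205977 to 101218420 and has 19 exons. It was at 34.7 FPKM (3560 fragments) and 30.1 FPKM (2932 fragments), a log2 ratio of -0.20 (-0.27 to -0.13). Both values lay inside the middle 95% of genes of that depth, and 13.1% of these genes had a log2 ratio as low as that of PLOD3 or lower.

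The makeup of the family was therefore not the same in the 2 libraries. PLOD2 made up 39.9% of the summed FPKM of the 3 lysyl hydroxylases in shControl and 48.5% in shFKBP9, while PLOD1 went from 41.2% to 36.2% and PLOD3 from 18.9% to 15.3%. The summed FPKM was 183.8 in shControl and 196.4 in shFKBP9. A ratio of 2 genes within a library does not depend on how the libraries are scaled. PLOD2 to PLOD1 was 0.969 in shControl and 1.34 in shFKBP9, which differ by a factor of 1.39 (exact 95% interval 1.33 to 1.45). For PLOD2 to PLOD3 the factor was 1.495 (1.41 to 1.58), and for PLOD1 to PLOD3 it was 1.08 (1.02 to 1.15). In all, 11 pairs of partner or family genes were compared in this way, of which 5 had an interval above 1, 2 one below 1 and 4 one that included 1, with no adjustment for their number. The share over other gene pairs of like depth is not known, so these counts are not a result about the families. The side of 1 on which a pair falls depends on which gene is put first.

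The lysyl oxidases also differed from each other. LOX (ENSG00000113083), the founding member of the family and an enzyme of collagen and elastin cross-linking, lies on the minus strand of chromosome 5 from 122063195 to 122078360 and has 7 exons. Its level was 108.2 FPKM (10865 fragments) in shControl and 124.2 FPKM (11827 fragments) in shFKBP9, which is 1.15 times as high (1.12 to 1.18), with a log2 ratio of 0.20 (0.16 to 0.24). Of all genes with at least 1000 fragments, 11.7% had a log2 ratio as high or higher, so LOX stood inside the spread of deep genes.

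The promoters of PLOD2 and LOX are shown because these were the genes whose interval lay above 0. The other known hypoxia genes of the group, PLOD1 and LOXL2, had intervals below 0. In RefSeq promoters (GRCh38.p14), 8 of the 10 genes were matched, through 11 windows, since LOX and SERPINH1 have more than 1 start. LOXL2 and P4HA3 had no entry there and were not searched, so of the hypoxia genes with an interval below 0 only PLOD1 was searched. The RefSeq start is not always the outer end of the gene in the deposited table: the PLOD2 windows and part of the LOX windows below lie inside the spans given above, which reach further upstream. The 250 bases before each start were searched on both strands for ACGTG, a form of the core of the hypoxia response element, a search chosen after the expression values were seen. The PLOD2 window held 2 matches and the most upstream LOX window 4, which are printed with 30 bases each, 5′ to 3′ on the strand of the gene, the match in capitals.
PLOD2, 200 bases before the start, chr3:146161367-146161396, minus strand: cgtgagcctccaCACGTagccgcaggcagc
PLOD2, 146 bases before the start, chr3:146161313-146161342, minus strand: caaacagtccagACGTGgggcccaggaggg
LOX, 185 bases before the start, chr5:122078427-122078456, minus strand: gctccctgtgcaACGTGtctggggggagga
LOX, 116 bases before the start, chr5:122078358-122078387, minus strand: ctgtccgccttgCACGTttccaatcgcatt
LOX, 98 bases before the start, chr5:122078340-122078369, minus strand: tccaatcgcattACGTGaacaaatagctga
LOX, 42 bases before the start, chr5:122078284-122078313, minus strand: gtaactttgcaaACGTGccagaaagtttaa
The capitals CACGT are the same letters read on the other strand. The other LOX windows held 1 match each and 1 of the SERPINH1 windows held 1. The windows of PLOD1, PLOD3, P3H1, CRTAP and COLGALT1 held 0. Over all 35116 promoters of this length, 18.5% held at least 1 match, 7.52% at least 2 and 0.669% at least 4. A CACGTG, which reads the same on both strands, counts as 2 matches in these shares. The matches printed for PLOD2 and LOX are separate sites, so the shares are not those of promoters with as many separate sites. A match describes letters in the window and does not show that a factor binds there.

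LOXL2 (ENSG00000134013), a lysyl oxidase active on network-forming collagen of basement membranes, lies on chromosome 8 from 23297189 to 23425328 and has 14 exons. Its fragments numbered 32860 in shControl and 29010 in shFKBP9, the most of the 10 genes, and its log2 ratio was -0.10 (-0.13 to -0.08). LOX to LOXL2 was 0.340 in shControl and 0.419 in shFKBP9, a factor of 1.23 (1.20 to 1.27). LOXL2 remained the main lysyl oxidase transcript per length, with 60.0% of the summed FPKM of the 5 family genes in shControl and 55.3% in shFKBP9, against 20.4% and 23.2% for LOX. The sum over the family was 530.0 and 535.7 FPKM.

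Of the prolyl 3-hydroxylase complex, CRTAP and P3H1 belong to this group, and both had a 95% interval below 0. CRTAP (ENSG00000170275), the scaffold of the complex, lies on chromosome 3 from 33113979 to 33147773 and has 7 exons. It was at 66.2 FPKM (8031 fragments) in shControl and 58.8 FPKM (6763 fragments) in shFKBP9, a log2 ratio of -0.17 (-0.22 to -0.12). P3H1 (ENSG00000117385), the catalytic component, lies on chromosome 1 from 42746335 to 42767084 and has 15 exons. It was at 25.4 FPKM (3116 fragments) and 23.9 FPKM (2771 fragments), a log2 ratio of -0.09 (-0.17 to -0.02). At 99% the interval of P3H1, -0.19 to 0.005, included 0, while that of CRTAP, -0.23 to -0.11, did not.

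PPIB, which encodes cyclophilin B, the prolyl isomerase of the complex, was at 108.9 FPKM in shControl and 109.7 FPKM in shFKBP9, a log2 ratio of 0.01 (-0.06 to 0.08). CRTAP to PPIB differed between the libraries by a factor of 0.882 (0.833 to 0.933), and P3H1 to PPIB by 0.931 (0.869 to 0.998). For P3H1 to CRTAP the factor was 1.06, with an interval of 0.994 to 1.12 that included 1. The values for CRTAP and P3H1 lay inside the middle 95% of deep genes.

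SERPINH1 and COLGALT1 showed the smallest differences. SERPINH1 (ENSG00000149257), on chromosome 11 from 75562056 to 75572783 with 5 exons, was at 113.8 FPKM (12945 fragments) in shControl and 110.8 FPKM (11945 fragments) in shFKBP9. Its log2 ratio was -0.04, with an interval that ended just below 0 (-0.08 to -0.003) and included 0 once libraries were scaled by their median ratio. COLGALT1 (ENSG00000130309), on chromosome 19 from 17555594 to 17583162 with 12 exons, was at 66.1 FPKM (5863 fragments) and 64.5 FPKM (5424 fragments), a log2 ratio of -0.04 (-0.09 to 0.02). The ratio of its levels was 0.976, with a counting interval of 0.940 to 1.01. COLGALT2, the other collagen galactosyltransferase, was at 0.149 FPKM in both libraries, from 21 and 20 fragments, and COLGALT1 stood 444.8 times as high per length in shControl and 432.0 times in shFKBP9.

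P4HA3 (ENSG00000149380), on chromosome 11 from 74235801 to 74311657 with 13 exons, encodes the rarest of the catalytic subunits of prolyl 4-hydroxylase. It held 4 fragments in shControl (0.0551 FPKM) and 7 in shFKBP9 (0.102 FPKM), near a floor set at 3 fragments, which equals 0.0413 and 0.0436 FPKM. The ratio was 1.85 with an interval from 0.469 to 8.60, so no difference could be detected at this depth. P4HA1 and P4HA2, the other alpha subunits, carried the family. P4HA1 was at 73.5 FPKM in shControl and 87.9 FPKM in shFKBP9, a log2 ratio of 0.26 (0.20 to 0.32), and P4HA2 at 80.6 and 86.7 FPKM, a log2 ratio of 0.11 (0.07 to 0.14). P4HA3 made up 0.0357% and 0.0582% of the summed FPKM of the alpha subunits. P4HA1 to P4HA2 differed between the libraries by a factor of 1.11 (1.06 to 1.17).

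Of the 10 genes, 6 overlap another gene on the genome in the deposited table, and whether the counting used strand is not given in the sources used here. For PLOD2 the partner is AC107021.1 on the opposite strand, with 14 fragments in shControl and 8 in shFKBP9. For LOX it is SRFBP1, with 197 and 184. PLOD3 shares 753 bases with ZNHIT1 on the opposite strand, which held 1781 and 1659 fragments, so the value of PLOD3 is less certain. LOXL2 overlaps ENTPD4 on the same strand, with 2012 and 2025 fragments, and AC090197.1, with 178 and 143. P4HA3, with its 4 and 7 fragments, overlaps PPME1 on the opposite strand, with 988 and 851, the snoRNA RF00409 on the same strand, with 0 and 2, and P4HA3-AS1, with 0 in both. CRTAP overlaps AC112211.1, which held 0 in both libraries. A pseudogene of SERPINH1, SERPINH1P1, held 9 and 2 fragments.

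A wider list of 28 other genes of collagen processing, export and cross-linking held more genes that were higher than lower in shFKBP9. Of the 26 with at least 10 fragments, 12 had an interval above 0, 4 one below 0 and 10 one that included 0, with 0 past 2-fold and a median log2 ratio of 0.10. Among all genes of at least that depth 13.8% lay above 0 and 16.9% below, and among genes with at least 1000 fragments, such as 18 of the list, 23.9% and 29.6%. Whether this list and the 10 enzymes differ was not tested. The largest differences upward among those with at least 1 FPKM were those of ADAMTS14, a procollagen N-propeptidase (log2 ratio 0.66, 0.35 to 1.08, from 103 and 160 fragments), P3H2, a prolyl 3-hydroxylase (0.52, 0.33 to 0.74), and LOXL3, a lysyl oxidase (0.37, 0.27 to 0.47). The lowest were those of P3H3 (-0.23, -0.33 to -0.14), BMP1, the procollagen C-propeptidase (-0.22, -0.28 to -0.16), and P3H4 (-0.16, -0.28 to -0.04). FKBP10, an ER prolyl isomerase of the same family as FKBP9 that acts together with PLOD2, was named after its value was seen, at 86.0 FPKM in shControl and 88.1 FPKM in shFKBP9 (log2 ratio 0.03, -0.01 to 0.08). FKBP14, the other ER prolyl isomerase of that family on the list, was also named afterwards, at a log2 ratio of 0.21 (0.04 to 0.39), from 528 and 580 fragments. P4HB, the shared beta subunit of prolyl 4-hydroxylase, was likewise named afterwards, at a log2 ratio of -0.03 (-0.06 to -0.005).

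Collagen chains differed widely in level. Of 10 chain genes, 7 reached 1 FPKM, led by COL1A1 at 837.0 FPKM in shControl and 883.5 FPKM in shFKBP9 (log2 ratio 0.08, 0.07 to 0.09). The 3 below 1 FPKM, named after their values were seen, were COL3A1, a fibril-forming chain, at 0.341 and 0.359 FPKM, and the network-forming chains of basement membranes, COL4A2 at 0.275 and 0.368 FPKM and COL4A1, of which shControl held 0 fragments and shFKBP9 held 1. Of the 9 chains with at least 10 fragments, 6 had an interval above 0 and 2 one below 0, with a median log2 ratio of 0.13, and 7 of the chains held at least 1000 fragments, a depth at which 23.9% of all genes lay above 0 and 29.6% below. COL6A1 stood highest among those over 1 FPKM (0.32, 0.30 to 0.34), followed by COL6A2 (0.15, 0.13 to 0.17) and COL1A2 (0.14, 0.13 to 0.16), and COL6A3 (-0.13, -0.15 to -0.12) and COL5A2 (-0.06, -0.11 to -0.01) stood lowest. The summed FPKM of the chains was 2361 in shControl and 2572 in shFKBP9, while that of the 10 enzymes was 881.6 and 874.8.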

How the data were processed

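RNA-Seq values of 1 shControl and 1 shFKBP9 library of SF-539 cells were used. The authors removed reads with adapters, undetermined bases or low quality, aligned read pairs to hg38 with HISAT2 2.0.5, counted them per gene with featureCounts 1.5.0-p3, and deposited FPKM beside gene positions and lengths. Multiplied by gene length, 100% of the values above 0 were whole multiples of 1 step per library (within 0.01 of a whole number), which gave the fragments on each gene. The libraries had been scaled to 0.99943 and 1.00057 times these totals.

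Log2 ratios were computed from FPKM with 0.1 added, which understates the change of low genes. Intervals of the ratio are exact Clopper-Pearson intervals of the fragments at 95%, those of levels exact Poisson intervals, and those of gene pairs exact conditional odds ratio intervals. All cover counting error only. With 1 library per condition no test between conditions was made and no p-value is given. Named genes are FKBP9, the 10 enzymes, genes overlapping them, partners in pairs, and the 3 highest and 3 lowest genes of each list with at least 1 FPKM. Beyond this rule, cell type markers are named in the check of the labels, and FKBP10, FKBP14, P4HB, SERPINH1P1, COL3A1, COL4A1 and COL4A2 were named after their values were seen. The enzymes, lists and motif were chosen with earlier results of these data known. Alternatives were another addition to FPKM (1 or 0.01), scaling by the median ratio, TPM, other minimums and a 99% interval. Calculations used scipy 1.17.1, pandas 2.3.3 and numpy 2.4.6 under Python 3.11.15, and plots matplotlib 3.10.9.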

Additional observations from a re-analysis of the deposited data

How the results depend on the processing

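Adding 1 to FPKM in place of 0.1 brought FKBP9 from a log2 ratio of -3.38 to -3.16, beyond its counting interval. Of 66 recomputed values of 18 results, 64 stayed within the counting interval, the spread of the list or 1.5 times the count, and 0 changed direction. Neighbours in level that did not differ beyond counting error numbered 2 by overlap of their intervals and 1 by the interval of their ratio, which was added after the data were seen and under which PLOD1 and PLOD2 in shControl differed. The number of enzymes past 2-fold was 0 under each alternative run. The number with an interval below 0 was 6 as reported, 4 at 99%, 5 with median scaling and 7 with TPM, while the number above 0 was 2 in each. Shares over all genes were computed only for the setting as reported and can differ under the alternatives. Whether the counts at 99%, with median scaling or with TPM lie above the background of the same setting was therefore not tested. At 99% the intervals of P3H1 and SERPINH1 included 0, with median scaling that of SERPINH1 did, and with TPM that of COLGALT1 lay below 0. Before the 0.1 was added, median scaling shifted log2 ratios by 0.017 and TPM by -0.018. No paired analysis was possible because each condition had 1 library. With 1 library a condition the spread between cultures is unknown, and the intervals cover counting error only.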
